A study of Mus musculus with 12 samples.

Results

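The 10 genes described here are chemokine, costimulatory and signalling genes of the mature thymic medulla. They were chosen by name from the 31332 genes of the count table, with earlier results of these data known. They are the chemokine genes Ccl17, Ccl19, Ccl20, Ccl22 and Ccl5, the costimulatory ligand genes Cd80 and Cd86, the receptor genes Tnfrsf8 and Il2rg, and the enzyme gene Hdc. RNA was counted in 12 libraries of sorted thymic epithelial cells from C57BL6/J mice aged 2 months. Control libraries came from mice whose Nr1h3 (LXR alpha) and Nr1h2 (LXR beta) genes were floxed, which encode the Liver X receptors, nuclear receptors that sense oxysterols. Cre libraries came from mice with the same floxed genes and FoxN1-Cre. The 4 groups of 3 were control mTEC (medullary cells, libraries 1 to 3), Cre mTEC (4 to 6), control cTEC (cortical cells, 7 to 9) and Cre cTEC (10 to 12).

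Foxn1 is a transcription factor of thymic epithelium, so a Cre driven by it acts in epithelium of both cortex and medulla. Nothing in the sources used here gives the sort gates or says whether the libraries of a group came from separate animals, so p-values measure the spread between libraries, which may be technical.

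Medullary thymic epithelial cells meet thymocytes after positive selection in the cortex. They make chemokines that draw thymocytes and dendritic cells into the medulla, and they display self antigens for negative selection and regulatory T cell development. Maturation of these cells depends on TNF family receptors that signal through NF-kappa B, and mature cells carry MHC class II with CD80 and CD86, the ligands of CD28 and CTLA-4.

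Total counts per library ran from 4804697 to 11159013. Nr1h2 stood at 110 to 132 CPM in control mTEC and 70.4 to 96.1 CPM in Cre mTEC, and 158 to 192 CPM in control cTEC against 102 to 124 CPM in Cre cTEC, so the genotypes did not overlap in either cell type. CPM are counts relative to the library total, scaled by edgeR's TMM factors. Nr1h3 stayed between 5.84 and 10.7 CPM in all 12 libraries and its groups overlapped in both cell types. Counts over whole genes can hold reads from the undeleted part, so these levels do not measure deletion. Prss16, a cortical protease gene, was at 1758 CPM or more in every cTEC library and at most 169 CPM in mTEC. Aire, the medullary regulator of tissue antigens, was at 490 CPM or more in every mTEC library and at most 10.8 CPM in cTEC. Cre cTEC library 11 had the fewest counts and the lowest correlation of log CPM with a library of its group, 0.971 with library 10.

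The promoters of 8 of the 10 genes were matched by symbol in the RefSeq table (GRCm38.p6). Those below are shown because Tnfrsf8 and Ccl22 passed the test between genotypes in mTEC, Hdc passed it in cTEC, and Ccl20 and Tnfrsf8 hold matches to the NF-kappa B consensus, which are in capitals. Each begins 250 bases before the annotated start and reads in the direction of the gene. Those of Tnfrsf8, Ccl20 and Hdc run up to the base before the start, while that of Ccl22 covers only the first 156 of the 250 bases. The positions are Tnfrsf8 chr4:145315165-145315414 (minus strand), Ccl20 chr1:83116516-83116765 (plus strand), Ccl22 chr8:94745434-94745589 (plus strand) and Hdc chr2:126618679-126618928 (minus strand).
Tnfrsf8: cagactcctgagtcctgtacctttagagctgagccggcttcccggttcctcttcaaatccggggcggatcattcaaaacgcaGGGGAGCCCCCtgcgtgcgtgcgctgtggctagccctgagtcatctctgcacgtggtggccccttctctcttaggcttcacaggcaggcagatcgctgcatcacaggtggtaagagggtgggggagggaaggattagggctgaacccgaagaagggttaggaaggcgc
Ccl20: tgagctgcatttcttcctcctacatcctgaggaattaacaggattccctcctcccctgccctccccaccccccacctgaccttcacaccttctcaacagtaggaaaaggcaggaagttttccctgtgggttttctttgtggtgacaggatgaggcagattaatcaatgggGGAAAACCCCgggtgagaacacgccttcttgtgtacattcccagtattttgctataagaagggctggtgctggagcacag
Ccl22: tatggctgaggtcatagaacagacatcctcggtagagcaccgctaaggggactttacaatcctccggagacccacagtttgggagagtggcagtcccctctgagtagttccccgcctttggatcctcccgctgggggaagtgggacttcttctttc
Hdc: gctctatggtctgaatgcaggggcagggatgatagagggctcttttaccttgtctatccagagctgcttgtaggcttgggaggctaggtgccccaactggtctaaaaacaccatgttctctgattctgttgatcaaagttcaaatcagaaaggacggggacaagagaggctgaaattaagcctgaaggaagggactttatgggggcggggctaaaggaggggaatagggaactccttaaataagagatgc
The stretch of Ccl22 is shorter because it stops before an exon annotated upstream (GENCODE M21), but motifs were sought in the full window of each gene. The match of Ccl20 lay on the minus strand at bases -80 to -71 from the start. Tnfrsf8 held a pair of overlapping matches between -168 and -158, each read on both strands. Of 32544 promoters in the table, 8.49% held a match on either strand in the window from 250 bases before to 50 after the start. A direct repeat of AGGTCA with any 4 bases between the copies, the kind of element that LXR and its partner RXR bind, matched in 0 of the 8 promoters and in 0.0154% of the table. TATAAA matched in Cd80, at bases 5 to 10 after the start on the minus strand, and in 13.6% of the table. A match in these letters is not a binding site shown by data, and no match concerns these windows and exact letters only. The exact AGGTCA repeat is so rare in the table that 0 of 8 says nothing particular about these genes.

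All 10 genes were higher in mTEC than in cTEC, in both genotypes, with no overlap between mTEC and cTEC libraries of a genotype. In controls the log2 difference ran from 1.56 for Cd86 (SE 0.35, adjusted p = 0.00095, edgeR) to 4.95 for Hdc (SE 0.23, adjusted p = 1.5e-12). Over all 17268 genes tested, 29.3% were called higher in mTEC of controls and 25.1% in mTEC of Cre mice, and 33.7% and 27.3% were higher without overlap. In Cre libraries the range was 1.49 for Cd86 (SE 0.41, adjusted p = 0.00544) to 6.23 for Hdc (SE 0.26, adjusted p = 6e-13). All 10 passed the filter on low counts, 9 of them also in the fit of the cTEC libraries alone. They were chosen as medullary genes, so this count describes the label and is not support for it.

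Levels of different genes were compared per kilobase of the longest annotated transcript (GENCODE M21). In control mTEC Hdc led with 106.5 CPM per kilobase, followed by Ccl5 at 74.4, Ccl20 at 54.8 and Il2rg at 45.2 CPM per kilobase. Ccl19 at 31.8 and Ccl22 at 27.5 CPM per kilobase overlapped in range, as did Tnfrsf8 at 20.1 and Cd80 at 15.7. Ccl17 at 12.0 and Cd86 at 5.24 CPM per kilobase were the lowest. In Cre mTEC Hdc again led, at 82.3 CPM per kilobase, and the order of the 10 was the same, but the ranges of Ccl5, Ccl20, Il2rg and Ccl19 overlapped from each to the next, and so did those of Tnfrsf8 and Cd80. In control cTEC Ccl5 and Il2rg led at 6.61 and 5.56 CPM per kilobase, with overlapping ranges, and Cd80 was lowest at 0.750. With the mean transcript length in place of the longest, Hdc led there at 9.28 CPM per kilobase, ahead of Il2rg at 8.93 and Ccl5 at 7.36, and Ccl17 was lowest at 0.843.

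**Figure D1:**
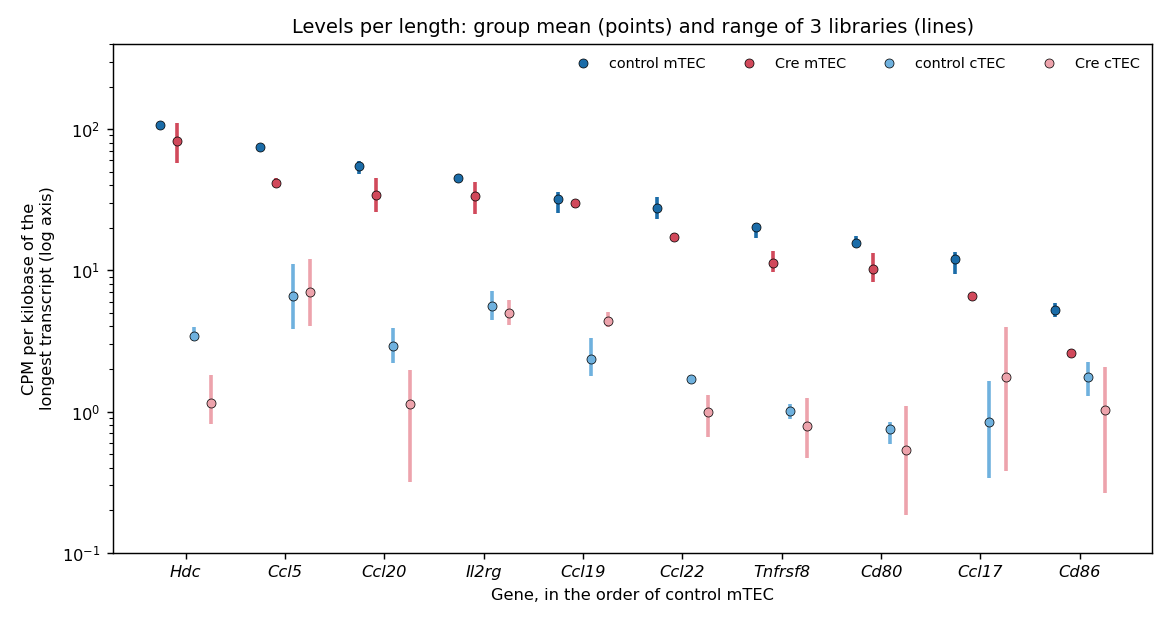
Level of each gene per kilobase of its longest transcript (log axis, CPM per kilobase) in the 4 groups, as the mean (point) and range (line) of 3 libraries. All mTEC points lie above the cTEC points of the same gene, and the order in control mTEC runs from Hdc at 106.5 down to Cd86 at 5.24.

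The genotype comparison in mTEC asks whether these genes differ once the floxed receptor genes meet Cre. Tnfrsf8 and Ccl22 passed the test and were lower in Cre mTEC, and 8 genes did not pass. Across all genes tested, 1.49% were called lower. For 8 of the 10, all Cre libraries lay below all control libraries, against 12.8% of all genes, and the exceptions were Ccl19 and Hdc. At an unadjusted p below 0.05 the count lower was also 8, against 8.14% of all genes. The log2 fold change was below 0 for all 10, against 48.5% of all genes, though that of Ccl19 turned without library 2. The median log2 fold change of the 10 was -0.68, against 0.01 over all genes tested. The 10 genes, and the lists of related genes below, were chosen with earlier results of these data known. Their counts and medians beside all genes are therefore descriptions and not independent support. In sorted bulk libraries, fewer cells of a mature type and less RNA per cell cannot be told apart.

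Tnfrsf8 encodes CD30, a TNF receptor family member of the medulla that binds CD30 ligand. It stood at 74.2, 57.7 and 74.4 CPM in control libraries 1 to 3 and at 36.2, 33.0 and 46.4 CPM in Cre libraries 4 to 6. Every Cre library lay below every control, a log2 fold change of -0.83 (SE 0.16, 95% interval -1.17 to -0.50, adjusted p = 0.0101, edgeR). Leaving out library 1, 3 or 5 ended the call (adjusted p up to 0.0876).

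Ccl22 and Ccl17 both encode ligands of CCR4, a receptor on thymocytes that enter the medulla. Ccl22 was at 73.1, 59.0 and 50.8 CPM in control mTEC and 40.9, 35.7 and 37.3 CPM in Cre mTEC. The groups did not overlap, and Ccl22 passed at a log2 fold change of -0.69 (SE 0.14, interval -0.98 to -0.39, adjusted p = 0.0148). Without library 1, the highest control, or library 5, the lowest Cre library, the adjusted p was 0.125 and 0.101. Ccl17 was much the lower of the pair, at 4.85, 6.78 and 6.93 CPM in the controls and 3.19, 3.46 and 3.40 CPM in Cre mTEC. Its groups did not overlap either, but with 21 to 62 counts per library it did not pass (log2 fold change -0.87, SE 0.41, adjusted p = 0.336). Among the alternatives, Ccl17 passed only in the fit of the mTEC libraries alone (adjusted p = 0.0471). The loci are neighbours on chromosome 8, with Cx3cl1, Gnb1-ps3 and Gm51543 annotated between them. Cx3cl1, the chemokine gene between them, was at 226, 167 and 169 CPM in control mTEC and 163, 196 and 160 CPM in Cre mTEC, with overlap (log2 fold change -0.12, SE 0.15, adjusted p = 0.788). Ccr4 itself, detected in these sorted cells, was at 22.2 to 26.9 CPM in control and 9.58 to 15.4 CPM in Cre mTEC, without overlap, and did not pass (log2 fold change -1.04, SE 0.27, adjusted p = 0.0501).

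Ccl5 encodes a chemokine that attracts T cells. Its level was 52.1, 49.8 and 47.3 CPM in control mTEC and 26.5, 27.3 and 30.1 CPM in Cre mTEC. The libraries of each group lay close together and the groups were far apart, yet the adjusted p was 0.0571 (log2 fold change -0.83, SE 0.22, interval -1.30 to -0.37). In the fit of the 6 mTEC libraries alone it passed (adjusted p = 0.000741), a fit that called 4.22% of all genes lower. It also passed with DESeq2's size factors, limma voom and no filter on low counts (adjusted p = 0.0481, 0.000278 and 1.39e-05). The same held without cTEC library 8, 9, 10 or 11 (adjusted p = 0.0288, 0.044, 0.0172 and 0.0073). Under the other settings its adjusted p reached 0.291. The spread of Ccl5 relative to its level was wider in cTEC, and the part of that spread in the test was not tested.

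Ccl20, the ligand gene of CCR6, was at 67.6, 81.7 and 83.6 CPM in control mTEC and 36.8, 43.7 and 64.2 CPM in Cre mTEC. Library 6 lay just under the lowest control, and the gene did not pass (log2 fold change -0.68, SE 0.20, adjusted p = 0.0922). Without library 6 its value was -0.95 (adjusted p = 0.0144). Ccl20 also passed with limma voom, with no filter and with the mTEC libraries alone (adjusted p = 0.00166, 0.000192 and 0.0268). It did so too without library 10 or 11 (adjusted p = 0.0234 and 0.0448). Under the other settings its adjusted p reached 0.406. Ccr6 was at 8.64 to 12.7 and 6.63 to 7.76 CPM and did not pass (adjusted p = 0.493).

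Ccl19 encodes a ligand of CCR7, the receptor that guides thymocytes into the medulla. Its level was 19.7, 27.6 and 26.5 CPM in control mTEC and 24.3, 23.9 and 21.5 CPM in Cre mTEC. All 3 Cre libraries lay inside the control range, and the log2 fold change was -0.08 (SE 0.17, interval -0.42 to 0.27, adjusted p = 0.895). The value was 0.01 without library 2. Stretches of its transcript match 4 other annotated genes at 95% identity or more, among them Gm2564 over 57.8% of its length and the pseudogene Ccl19-ps1 over 37.0%, so its counts depend on how the authors treated reads with several matches, which no source used here gives. Ccr7 was at 30.7 to 38.0 CPM in control and 24.8 to 30.1 CPM in Cre mTEC (adjusted p = 0.464).

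Cd80 and Cd86 encode B7 family ligands for CD28 and CTLA-4. Cd80 was at 46.9, 46.6 and 55.9 CPM in control mTEC and 28.1, 26.2 and 42.3 CPM in Cre mTEC, without overlap. Cd86 was at 11.9, 13.1 and 14.9 CPM in the controls and 6.54, 6.17 and 7.07 CPM in Cre mTEC. The 3 Cre values of Cd86 lay within 1 CPM of each other and below every control. Neither passed: the log2 fold change was -0.62 for Cd80 (SE 0.21, interval -1.06 to -0.19) and -1.004 for Cd86 (SE 0.34, interval -1.71 to -0.30), each with an adjusted p of 0.133. Both passed in the fit of the 6 mTEC libraries alone (adjusted p = 0.0331 and 0.00622), which called 4.22% of all genes lower. They also passed with limma voom (0.0016 and 0.0027), with no filter (0.00282 and 0.00166) and without library 11 (0.0206 and 0.0123). Cd80 passed without library 6 and Cd86 without library 10 (adjusted p = 0.03 and 0.0232). Under the other settings the adjusted p reached 0.488 for Cd80 and 0.396 for Cd86. Cd28, a T cell gene, was at 10.6 to 14.8 CPM in control and 9.38 to 15.2 CPM in Cre mTEC.

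Il2rg encodes the common gamma chain, shared by the receptors for interleukins 2, 4, 7, 9, 15 and 21. Its level was 76.8, 71.7 and 77.9 CPM in control mTEC and 41.5, 54.4 and 71.0 CPM in Cre mTEC. Library 6 lay at the lower edge of the controls, and the gene did not pass (log2 fold change -0.44, SE 0.16, adjusted p = 0.188). Il2rg passed with limma voom, with no filter and without library 6 (adjusted p = 0.016, 0.041 and 0.0293). Under the other settings its adjusted p reached 0.533. A stretch of 43.7% of its transcript is identical to Gm20489, which has a row of its own in the count table.

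Hdc encodes histidine decarboxylase, the enzyme that makes histamine. It was the most abundant of the 10, at 504, 449 and 491 CPM in control mTEC and 261, 359.9 and 495 CPM in Cre mTEC. The Cre libraries spread from below every control to within the control range, and the log2 fold change was -0.37 (SE 0.18, interval -0.76 to 0.01, adjusted p = 0.362). Hdc passed with limma voom and without library 6 (adjusted p = 0.0409 and 0.0499). Under the other settings its adjusted p reached 0.767.

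**Figure D2:**
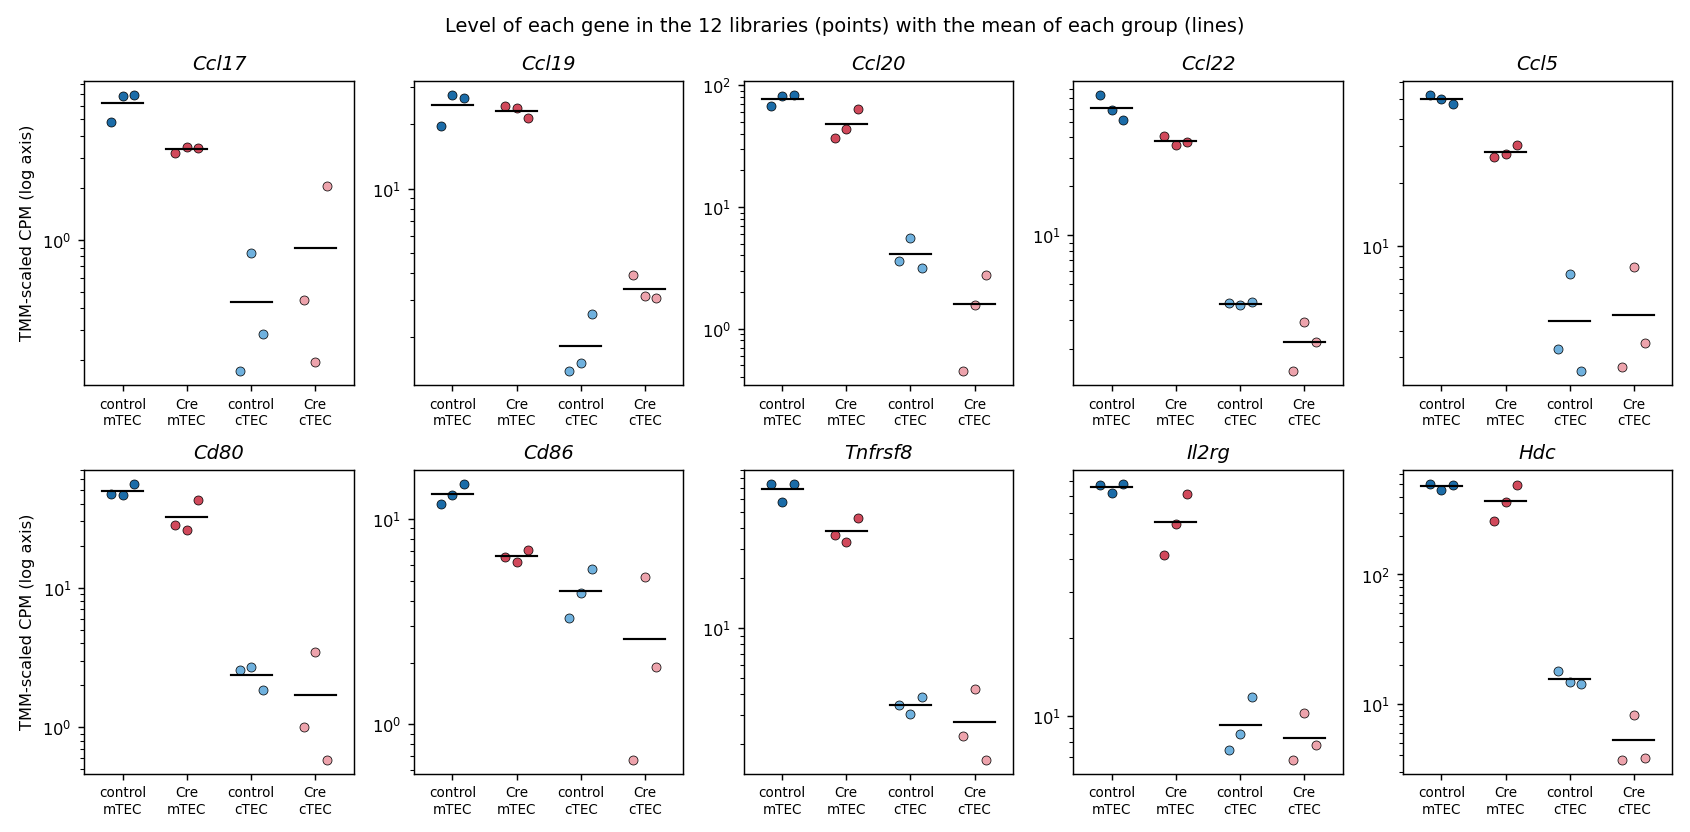
TMM-scaled CPM (log axis) of each of the 10 genes in every library (points, in library order within a group), with the mean of each group as a line. mTEC points lie above cTEC points in every panel, and Cre mTEC lies below control mTEC without overlap for 8 genes, the exceptions being Ccl19 and Hdc.

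Cre mTEC library 6 was the highest of its group for 7 of the 10 genes and library 5 for 1. The median level of the 10, as a percentage of the control mTEC mean, was 53.7% in library 4, 56.1% in library 5 and 75.1% in library 6. Ccl17, Ccl22, Ccl5 and Cd86 lay between 46.4% and 67.1% in all 3 Cre libraries, while Ccl20, Cd80, Il2rg and Hdc lay between 82.7% and 103% in library 6. Aire, chosen after its values were seen, followed the same order of libraries, at 490, 566 and 867 CPM in Cre mTEC against 795 to 935 CPM in controls, and did not pass (log2 fold change -0.43, SE 0.20, adjusted p = 0.322). Without library 6, 6 of the 10 were called lower, against 2.81% of all genes. Without library 1 or without library 5, 0 were (background 0.366% and 0.342%), and without library 3 only Ccl22 was (0.453%). Leaving out Cre cTEC library 10 gave 5 (2.76%) and leaving out library 11 gave 6 (4.19%). The fit of the mTEC libraries alone and the fit with no filter on low counts each called 7 lower, against 4.22% and 2.15% of all genes, and limma voom called 8 (6.36%).

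**Figure D3:**
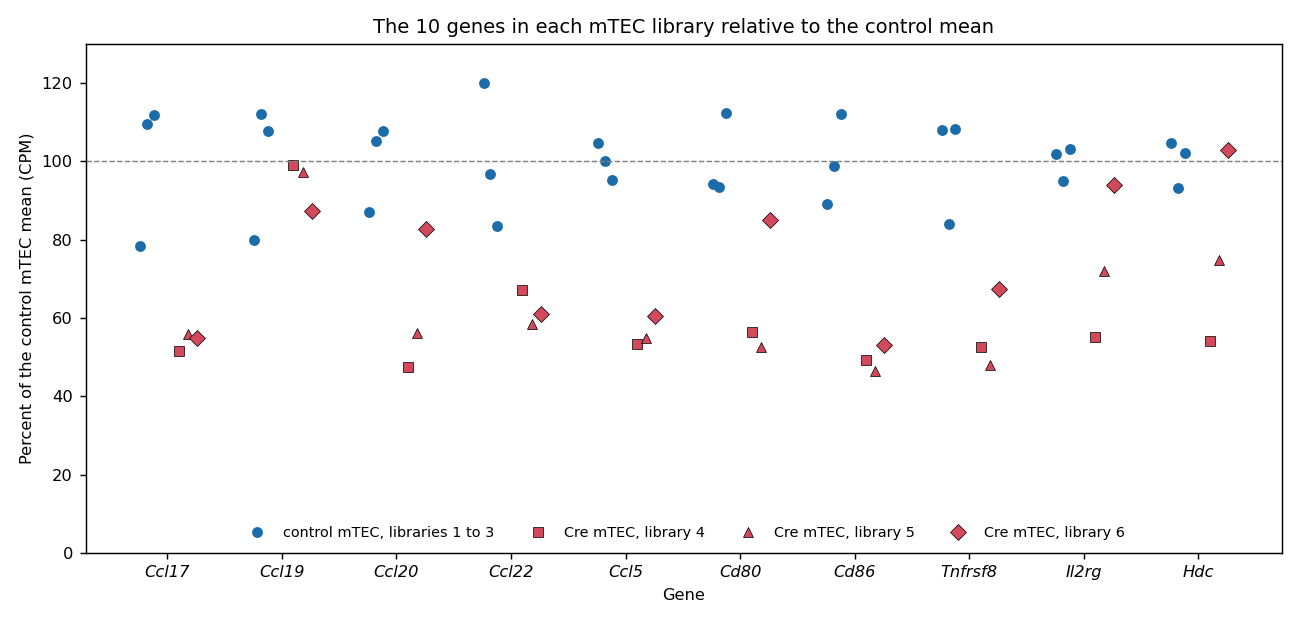
Level of each gene in the 6 mTEC libraries as a percentage of the control mTEC mean (dashed line at 100). Circles are control libraries, and the square, triangle and diamond are Cre libraries 4, 5 and 6. The diamonds of Ccl20, Cd80, Il2rg and Hdc sit well above the squares.

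Other cells can express several of these genes, and marker lists were read in the same libraries. The 19 dendritic cell and macrophage markers summed to 411 to 482 CPM in control mTEC and to 343, 354 and 471 CPM in Cre libraries 4, 5 and 6. None of the 17 tested was called between genotypes in mTEC, against 2.07% of all genes. Lyz2, Zbtb46 and Sirpa led that list, at means of 248.7, 75.6 and 52.1 CPM in control mTEC and 214.2, 62.9 and 56.4 CPM in Cre mTEC. In controls 9 of the 17 were called higher in mTEC than in cTEC and 2 lower, against 29.3% and 30% of all genes. Itgax, which defines dendritic cells, was at 0.719 to 0.875 CPM in control mTEC and 0.304 to 1.77 CPM in Cre mTEC, and Clec9a was at most 0.544 CPM in either. The 12 mast cell and basophil markers, cells that also express Hdc, summed to 108 to 124 CPM in control mTEC and to 70.7, 101 and 121 CPM in Cre libraries 4 to 6, in the library order of Hdc. Kit made up most of that sum, at 78.0 to 91.2 CPM in controls. Tpsb2 and Il1rl1 were at means of 6.6 and 6.3 CPM in control mTEC and 3.8 and 6.2 CPM in Cre mTEC. Cpa3, a mast cell protease gene, was at most 0.761 CPM in mTEC. The 10 B cell markers summed to 126 to 161 CPM in control and 119 to 158 CPM in Cre mTEC, and the 11 innate lymphoid and NK cell markers to 39.9 to 47.5 and 38.0 to 46.0 CPM. The 22 thymocyte markers summed to 267 to 329 CPM in control and 274 to 354 CPM in Cre mTEC. None of the tested B cell, mast cell, innate lymphoid or thymocyte markers was called in mTEC. The 12 endothelium and fibroblast markers summed to 147 to 159 CPM in control and 124 to 137 CPM in Cre mTEC. Of the 11 tested, 1 was called lower, Col1a1, against 1.49% of all genes. Between mTEC and cTEC of controls, 7 of 10 mast cell and basophil markers tested were called higher in mTEC and 1 lower. Of 8 B cell markers 6 were higher and 0 lower, and of 6 innate lymphoid and NK cell markers 3 and 0. Of 21 thymocyte markers 0 were higher and 12 lower, and of 11 endothelium and fibroblast markers 5 and 3. Over all genes 29.3% were called higher and 30% lower. No marker list had a gene at 0 in every library of a group. The part of these cells in the genotype differences was not tested.

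In cTEC the 10 genes were low, and Hdc alone passed, lower in Cre cTEC. Hdc was at 17.8, 14.6 and 14.3 CPM in control libraries 7 to 9 and at 3.69, 8.16 and 3.80 CPM in Cre libraries 10 to 12. Every Cre library lay below every control, a log2 fold change of -1.65 (SE 0.29, interval -2.26 to -1.04, adjusted p = 0.00096, edgeR). The call held under each alternative tried, with values from -2.06 to -1.43. Over all genes tested, 3.38% were called lower in Cre cTEC. Hdc in control mTEC was higher by 4.95 on the log2 scale, and whether it came from cortical cells or from medullary RNA in the cTEC libraries was not tested. Aire stood at 10.0, 9.92 and 10.8 CPM in control cTEC against 2.91, 9.52 and 4.82 CPM in Cre cTEC, without overlap (adjusted p = 0.0848). The mast cell and basophil markers summed to 22.3 to 29.8 CPM in control and 16.5 to 26.2 CPM in Cre cTEC.

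Ccl20 and Ccl22 were also lower in every Cre cTEC library than in every control but did not pass, against 10.1% of all genes whose groups did not overlap in that direction. Ccl20 was at 3.63, 5.55 and 3.14 CPM in the controls and 0.447, 1.55 and 2.78 CPM in the Cre cTEC libraries (log2 fold change -1.43, SE 0.45, adjusted p = 0.0562). Ccl22 was at 3.80, 3.70 and 3.85 CPM in controls, a narrow range, and 1.45, 2.91 and 2.19 CPM in the Cre cTEC libraries (log2 fold change -0.86, SE 0.28, adjusted p = 0.067). Ccl19 went the other way. It was at 1.38, 1.51 and 2.57 CPM in the controls and 3.91, 3.11 and 3.07 CPM in Cre cTEC, without overlap, against 10.2% of all genes, and it did not pass (log2 fold change 0.87, SE 0.29, adjusted p = 0.0746).

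The other 6 genes overlapped between genotypes in cTEC. Ccl17 was close to the counting limit, with 1, 5 and 2 counts in controls and 4, 1 and 14 counts in Cre cTEC, and its value changed sign without library 12. Ccl5 was at 2.57 to 7.40 CPM in control and 2.68 to 7.97 CPM in Cre cTEC (adjusted p = 0.995). The log2 fold change was -0.64 for Cd80, -0.94 for Cd86, -0.43 for Tnfrsf8 and -0.21 for Il2rg, with adjusted p from 0.233 to 0.737. Library 11 was the highest Cre cTEC library for 7 of the 10 genes. Without it Cd86 was at -1.88 (adjusted p = 0.00293), Cd80 at -1.51 (adjusted p = 0.0479) and Ccl22 at -1.09 (adjusted p = 0.0311), so 4 genes were called lower, Hdc among them, against 4.89% of all genes in that fit.

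**Figure D4:**
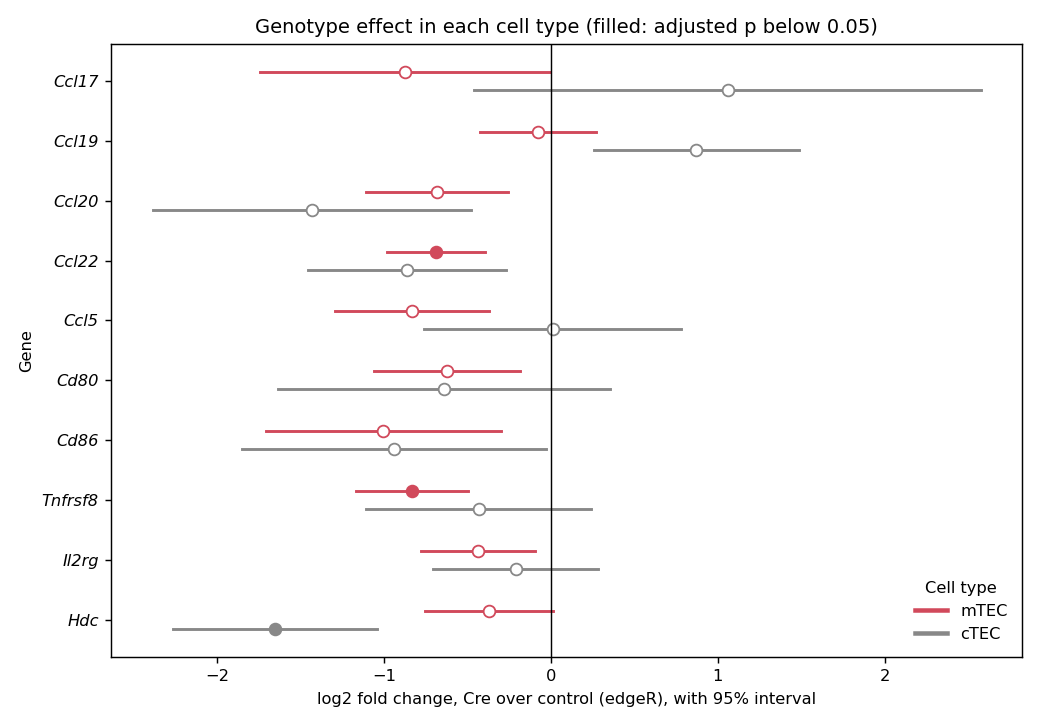
log2 fold change of Cre over control with its 95% interval (edgeR) for each gene, in mTEC (red) and cTEC (grey). Filled points passed at an adjusted p below 0.05: Ccl22 and Tnfrsf8 in mTEC, and Hdc in cTEC. All mTEC values lie below 0, and the intervals of Ccl19, at -0.08, and Hdc, at -0.37, cross it.

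Whether the genotype effect differed between the cell types was tested directly as the mTEC effect minus the cTEC effect. Hdc alone passed, at 1.28 (SE 0.35, interval 0.55 to 2.01, adjusted p = 0.0427), since it was lower by more in cTEC. Over all genes, 1.08% were called in that direction and 2.92% in the other. The call was lost with DESeq2, with its size factors, with the robust fit, with the filter of 5 CPM, and without any one library other than 4 or 11, with adjusted p up to 0.148. For the other 9 the difference did not pass. It was -1.93 for Ccl17 (interval -3.68 to -0.19, adjusted p = 0.242) and -0.95 for Ccl19 (interval -1.65 to -0.24, adjusted p = 0.137). For Ccl22 it was 0.18 (interval -0.48 to 0.83) and for Tnfrsf8 -0.40 (interval -1.17 to 0.37), intervals that leave room for effects of unlike size in the cell types.

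Receptors and signalling partners of the 10 genes were read from a list of 28, of which 26 were tested. In mTEC 1 was called, lower, against 1.49% of all genes. It was Il2ra, the interleukin 2 receptor alpha chain that pairs with the Il2rg product. Its level was 75.4, 61.0 and 66.6 CPM in the controls and 50.2, 31.5 and 43.0 CPM in Cre mTEC. The groups did not overlap (log2 fold change -0.70, SE 0.15, adjusted p = 0.0168), and leaving out library 1, 3 or 5 ended the call (adjusted p up to 0.128). In cTEC 3 were called higher, against 5.62% of all genes: Stat5a, Il15ra and Jak3, which act in signalling through the common gamma chain, at log2 fold changes of 0.60, 0.50 and 0.42. Stat5a went from 27.8 to 34.0 CPM in controls to 38.2 to 53.4 CPM in Cre cTEC (adjusted p = 0.00668), and Jak3 from 72.0 to 78.7 CPM to 92.1 to 115 CPM (adjusted p = 0.0136). Stat5a lost its call without library 10, and Jak3 without library 8, 9 or 10 (adjusted p reaching 0.0501 and 0.0891). The difference of effects passed for Il2ra (-1.16, adjusted p = 0.00927), Stat5a (-0.81, adjusted p = 0.0134) and Slc18a2 (-1.18, adjusted p = 0.0462), a transporter that loads histamine into vesicles. That of Slc18a2 was lost with the filter of 5 CPM and when library 1, 2, 3, 4, 5, 7, 9 or 11 was left out (adjusted p up to 0.139). Il7r was at 4.31 to 5.93 CPM and Il4ra at 356 to 402 CPM in control mTEC, and neither passed in either cell type. Tnfsf8, the CD30 ligand gene, was at most 3.80 CPM in any library, and Hnmt, which inactivates histamine, at 4.27 to 8.86 CPM. The median of the list was -0.17 in mTEC and -0.08 in cTEC, against 0.01 and -0.02 over all genes tested.

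Of 28 other chemokine genes tested, 5 were called lower and 0 higher in Cre mTEC, and 0 lower and 4 higher in Cre cTEC. Over all genes tested, 1.49% were called lower and 0.585% higher in mTEC, and 3.38% lower and 5.62% higher in cTEC. Ccl11, an eosinophil chemokine gene, was at 583, 539 and 497 CPM in control mTEC and 310, 199.5 and 201 CPM in Cre mTEC (log2 fold change -1.19, SE 0.20, adjusted p = 0.00473). Ccl8 was at 13.7 to 17.9 and 5.03 to 6.85 CPM (log2 fold change -1.46, SE 0.26, adjusted p = 0.0068). Ccl25, a thymocyte attractant that cortical cells make in quantity, moved in opposite directions: 154 to 188 CPM in control and 51.0 to 89.5 CPM in Cre mTEC (log2 fold change -1.26, adjusted p = 0.00862), and 441, 629.8 and 482 CPM in control and 1174, 513 and 903 CPM in the Cre cTEC libraries (log2 fold change 0.74, adjusted p = 0.0462). The cTEC call of Ccl25 rested on many libraries, being lost with DESeq2, with the robust fit, in the fit of the cTEC libraries alone and without library 1, 2, 3, 6, 7, 9, 10 or 12, and its mTEC call was lost with the robust fit and without library 5 (adjusted p = 0.0608 and 0.0788). Without library 10 its cTEC value was 0.45 (adjusted p = 0.262).

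Cxcl1 was also lower in Cre mTEC (-0.70, adjusted p = 0.0381, lost without any one of libraries 1 to 5, up to 0.254), and Ccl7 was the fifth (-0.87, adjusted p = 0.0444). Cxcl10, an interferon-induced chemokine gene, was higher in Cre cTEC, at 35.1 to 40.2 CPM in control and 49.2 to 76.6 CPM in Cre libraries (log2 fold change 0.85, SE 0.17, adjusted p = 0.00218). Cxcl9 and Cxcl14 were higher there too (1.17 and 1.09, adjusted p = 0.0152 and 0.0332), calls lost with limma voom and in the fit of the cTEC libraries alone, and without library 7, 8 or 11, with Cxcl14 also lost without library 10 and with the robust fit. Without library 11 Cxcl9 stood at 0.82, and without library 7 Cxcl14 at 0.76 (adjusted p = 0.0505 and 0.171). The difference of effects passed for Ccl25, Cxcl10, Ccl11, Ccl7 and Cxcl9, each relatively lower in mTEC, a count of 3 without library 7 or 8, with the call of Ccl7 lost without library 7 or 8 (adjusted p = 0.0687 and 0.0564). The mTEC count of 5 was 11 with limma voom, 3 without library 1, 2 or 3 and 2 without library 5. The cTEC count of 4 was 1 without library 7 and 2 without library 8 or 10. The list's median was -0.34 in mTEC and 0.15 in cTEC, against 0.01 and -0.02 over all genes.

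Of 19 other costimulatory and coinhibitory genes tested, Pdcd1lg2 and Cd274 were called lower in Cre mTEC, against 1.49% of all genes. These encode PD-L2 and PD-L1, the inhibitory ligands of PD-1. Pdcd1lg2 was at 45.5, 39.6 and 40.0 CPM in control mTEC and 18.1, 17.3 and 20.5 CPM in Cre mTEC (log2 fold change -1.16, SE 0.13, adjusted p = 8.9e-05). The groups were far apart and the call held under each alternative tried. Cd274 was at 194, 186 and 177 CPM in the controls and 97.4, 109 and 109 CPM in Cre mTEC (log2 fold change -0.82, SE 0.18, adjusted p = 0.0186), a call lost without any one of libraries 1 to 5 (adjusted p up to 0.0936). In Cre cTEC 2 were higher and 3 lower, against 5.62% and 3.38% of all genes. Cd40, a TNF receptor family member that signals to NF-kappa B, was at 12.3 to 16.3 CPM in control and 20.2 to 40.8 CPM in the Cre cTEC libraries (log2 fold change 1.02, adjusted p = 0.00234). 4632428N05Rik, also called Vsir, which encodes the inhibitory ligand VISTA, was at 57.2 to 67.9 CPM in control and 28.7 to 40.2 CPM in the Cre cTEC libraries (log2 fold change -0.94, SE 0.16, adjusted p = 0.00054). Icosl was lower at -0.71 (adjusted p = 0.0193, lost without library 7 or 10, with 0.157 and 0.105), and Tnfrsf14 higher at 1.32 (adjusted p = 0.0237, lost without library 7, 8, 9 or 12 and in the fit of the cTEC libraries alone, with up to 0.116). Cd48, named because it completes the count, was lower at -1.69 (adjusted p = 0.0496) from under 5 CPM. The difference of effects passed for Cd274 (-1.30), Pdcd1lg2 (-1.06) and Cd40 (-1.23), with adjusted p = 0.00572, 0.00817 and 0.00944. The mTEC count of 2 was 4 without library 6 and 5 with limma voom, and the cTEC count higher was 4 without library 11. In this list the median was -0.12 in mTEC and 0.04 in cTEC.

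Of 30 other TNF receptor and TRAF genes tested, 3 were called lower in Cre mTEC, against 1.49% of all genes. Tnfrsf9, which encodes the costimulatory receptor 4-1BB, was at 50.7, 53.5 and 57.5 CPM in the controls and 32.7, 25.1 and 38.5 CPM in Cre mTEC (log2 fold change -0.74, SE 0.17, adjusted p = 0.0305). Traf1, an adaptor for CD30 and 4-1BB, was at 61.5 to 68.0 CPM in the controls and 41.8 to 50.3 CPM in Cre mTEC (log2 fold change -0.53, SE 0.13, adjusted p = 0.035). Tnfrsf19 was the third (-0.81, adjusted p = 0.0381). For each of the 3 the groups did not overlap and the call was lost without any one of libraries 1 to 5, with adjusted p up to 0.213, 0.196 and 0.267. In Cre cTEC 4 were higher and 1 lower, against 5.62% and 3.38% of all genes. Traf3, an inhibitor of the noncanonical NF-kappa B pathway, was at 75.2 to 78.9 CPM in control and 109 to 148 CPM in the Cre cTEC libraries (log2 fold change 0.68, SE 0.12, adjusted p = 0.00131). Tnfrsf21 and Ngfr were higher as well, at 0.59 and 0.98 (adjusted p = 0.00178 and 0.00179), as was Tnfrsf11a, which encodes RANK. Tnfrsf11b, which encodes a decoy receptor for the ligand of RANK, was lower at -0.90 (adjusted p = 0.0284). The list's median was -0.12 in mTEC and 0.07 in cTEC.

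Of 16 NF-kappa B genes tested, Rel alone was called in Cre mTEC, lower, against 1.49% of all genes. Rel was at 27.0, 20.6 and 22.5 CPM in the controls and 9.89, 14.3 and 13.3 CPM in Cre mTEC (log2 fold change -0.90, SE 0.17, adjusted p = 0.00993). Its call was lost without library 1 (adjusted p = 0.0808). In Cre cTEC 7 were called higher, against 5.62% of all genes, and 0 lower. The count of 7 was 3 without library 10 and 4 without library 3, 7, 9 or 12. Among the 7 was Tnfaip3, a feedback inhibitor of the pathway, at 71.6 to 82.2 CPM in control and 111 to 143 CPM in Cre libraries (log2 fold change 0.72, SE 0.11, adjusted p = 0.00037). Nfkbie, another inhibitor gene, was higher at 0.54 (adjusted p = 0.0093, and 0.0639 without library 10). The median of the 16 was -0.07 in mTEC and 0.25 in cTEC. The difference of effects passed for Map3k14 (-1.11, adjusted p = 0.00204), Nfkb2 (-0.82, adjusted p = 0.0126), Rel (-1.05, adjusted p = 0.0208) and Tnfaip3 (-0.62, adjusted p = 0.0289), and the call was lost for Nfkb2 without library 9, for Rel without library 1, 8, 9 or 10, and for Tnfaip3 without any one library other than 4, 6 or 11 (adjusted p up to 0.0524, 0.0773 and 0.0827).

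Of 19 other genes of mature medullary epithelium tested, 1 was called in mTEC, lower, against 1.49% of all genes. It was Krt10, a keratin of differentiating epithelium. Its level was 59.1, 58.0 and 76.6 CPM in the controls and 33.5, 20.6 and 29.2 CPM in Cre mTEC (log2 fold change -1.21, SE 0.15, adjusted p = 0.00035). The groups did not overlap and the call held under each alternative tried. Fezf2 and Spib, transcription factor genes of mature medullary cells, were at 408 to 480 CPM and 289 to 361 CPM in Cre mTEC, against 499 to 567 and 311 to 326 CPM in controls, and neither passed (adjusted p = 0.554 and 0.909). Spib was chosen after its values were seen. The list's median was -0.23 in mTEC, with 18 of 19 values below 0, against 48.5% of all genes. Its count called lower in mTEC, 1, was 6 with limma voom, 4 without library 6, 3 without library 11, with DESeq2, with no filter or with the mTEC libraries alone, and 2 without library 10. In Cre cTEC 4 were higher, Tnfrsf11a, Cd40, Irf8 and Fezf2, and 2 lower, against 5.62% and 3.38% of all genes. The lower ones were Krt5 (-0.79, adjusted p = 0.001) and Il1rn, an interleukin 1 antagonist gene. Il1rn was at 8.82 to 12.8 CPM in control and 3.22 to 4.86 CPM in the Cre cTEC libraries (log2 fold change -1.63, SE 0.24, adjusted p = 0.00025). Il1rn thus stood beside Hdc, with a difference of effects of 1.12 (adjusted p = 0.0309), a call lost without library 2, 3, 4, 8, 9 or 12.

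The genes with a pattern most like each of the 10 were ranked by the root mean square difference of gene-centred log2 CPM over the 12 libraries, among genes of at least 5 CPM on average. These values describe mainly the gap between mTEC and cTEC, which all share. The nearest to Il2rg was Grhl3, at 0.15, and to Tnfrsf8 were Sel1l3 and Il23r, both at 0.19. Cd80 was nearest to Tnfrsf9 (0.22), Ccl22 to Sox21 (0.23) and Ccl19 to Stat5a (0.21). Ccl5 was nearest to Fam55c (0.29), Cd86 to Chgb (0.29), Hdc to Calcb (0.33), Ccl17 to AA467197 (0.36) and Ccl20 to Saa1 (0.39).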

How the data were processed

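RNA of flow-sorted cells was purified with a NucleoSpin XS kit and made into libraries with a SMARTer low-input kit, per the labels' protocols. That kit does not mark strand, so reads of overlapping genes on opposite strands cannot be told apart. The authors deposited raw read counts per gene symbol, and STAR, HTSeq, edgeR and the build mm9 are named in the submitters' processing notes. No source used here gives versions, the annotation or the treatment of reads with several matches.

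From the counts, 17268 of 31332 genes passed edgeR's filterByExpr by group. Groups were compared with the quasi-likelihood test of edgeR 4.0.16 in R 4.3.3, two-sided, after TMM scaling, in 1 fit of 12 libraries and 4 groups with 8 residual degrees of freedom. P-values were adjusted by Benjamini-Hochberg over all genes tested and called at 0.05. It was tested on simulated data. Printed adjusted p-values come from this test where no other is given. Counting error is smallest where counts are high: 1 count was worth 0.0898 to 0.194 CPM. Within groups, log CPM correlated at 0.971 to 0.991 and chi-square per degree of freedom was 3.28 to 12.9, so none was a copy.

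Other settings tried were size factors from DESeq2, the test of DESeq2 1.42.0, voom of limma 3.58.1 with quality weights, a robust fit, no filter, at least 5 CPM in 3 libraries, a fit of the compared libraries alone, and leaving out each library. Lengths came from GENCODE M21 (GRCm38) and promoters from RefSeq (GRCm38.p6), builds other than the authors'. Near-identical copies were sought with blastn 2.17.0. The 10 genes and the lists were chosen with earlier results of these data known. Genes named beyond the 10 were, in each list, up to 4 with the lowest p past the threshold in each genotype comparison and in the difference of effects, and the receptor or ligand of each of the 10, except where not reported here. Members of short counts outside this rule were named after their values were seen.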

Additional observations from a re-analysis of the deposited data

Results flagged for a closer look

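The results below were singled out because the genotype effect differed between the cell types in the test of the difference itself, given as the mTEC effect minus the cTEC effect on the log2 scale (edgeR, adjusted p below 0.05). They come from the 10 genes and the lists of related genes. Over all genes tested, 1.08% were called with a positive difference and 2.92% with a negative one. Hdc, at 1.28, and Il1rn, an interleukin 1 antagonist gene, at 1.12, had positive values. Among chemokine genes the value was -1.997 for Ccl25, -1.45 for Ccl11, -1.43 for Ccl7, -1.20 for Cxcl9 and -1.10 for Cxcl10. For the inhibitory ligands it was -1.30 for Cd274 and -1.06 for Pdcd1lg2. TNF receptor family genes and their adaptor stood at -1.23 for Cd40, -0.96 for Ngfr, -0.92 for Tnfrsf21, -0.92 for Traf3, -0.88 for Tnfrsf19 and -0.86 for Tnfrsf11a. NF-kappa B genes stood at -1.11 for Map3k14, -1.05 for Rel, -0.82 for Nfkb2 and -0.62 for Tnfaip3. Partners of the 10 genes stood at -1.18 for Slc18a2, -1.16 for Il2ra and -0.81 for Stat5a. The transcription factor genes of mature medullary cells stood at -1.07 for Irf8 and -0.96 for Fezf2, and the keratin gene Krt10 at -0.93. Several of these calls depended on single libraries, as described above for Hdc, Il1rn, Ccl7, Slc18a2, Rel, Nfkb2 and Tnfaip3. Ngfr (adjusted p = 0.0404) was another. It no longer passed once library 1, 2, 3, 5, 6, 7, 9 or 12 was removed, with 0.124 as its largest adjusted p.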

How the results depend on the processing

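No paired analysis was made. The library numbers, 1 to 12, do not show whether mTEC and cTEC libraries came from the same animals, and no source used here says so. Libraries were treated as independent, so any pairing between mTEC and cTEC was not used. The 10 genes kept their direction between mTEC and cTEC under each alternative, and 9 remained to be tested with the filter of 5 CPM. In mTEC the count of the 10 called lower was 2, against 8 with limma voom, 7 without the filter on low counts, 7 with only the libraries compared, and 0 to 6 with a library left out. In cTEC the count lower was 1, against 2 with DESeq2, 2 with limma voom, 2 without the filter, and 1 to 4 with a library left out, where 0 to 1 were higher. The difference of effects called 1 of the 10 higher, against 0 with DESeq2's size factors, 0 with DESeq2, 0 with the robust fit, 0 with the filter of 5 CPM and 0 to 1 with a library left out; limma voom called 1 lower, Ccl17 at -2.62. When the mean transcript length replaced the longest, the order of levels kept 6 of 10 places in each mTEC group, 2 in control cTEC and 1 in Cre cTEC.

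Over all genes, mTEC calls numbered 101 higher and 257 lower. With limma voom they were 573 and 1099, without the filter 375 and 674, with only the libraries compared 341 and 685, with DESeq2 473 lower, and with a library left out 13 to 248 and 61 to 736. In cTEC they were 971 higher and 584 lower, against 877 lower with limma voom, and 599 to 1436 and 361 to 858 with a library left out. The difference of effects gave 187 higher and 505 lower, against 587 and 811 with limma voom, 901 lower with DESeq2, 861 lower without the filter, and 90 to 562 and 275 to 1082 with a library left out.

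Signs turned for genes near 0 or with few counts, none of them called. With a library left out, Ccl19 in mTEC ran from -0.222 to 0.0108. In cTEC Ccl17 ran from -0.276 to 1.88, Ccl5 from -0.518 to 0.594 and Il2rg from -0.383 to 0.0195. For the difference of effects Ccl22 ran from -0.101 to 0.364, Cd80 from -0.371 to 0.852 and Cd86 from -0.610 to 0.841. With limma voom Ccl5 in cTEC was -0.0883, and the difference was 0.298 for Cd86 and 0.0405 for Tnfrsf8. The difference for Cd80 was -0.0289 with DESeq2's size factors, -0.0528 with DESeq2 and -0.0679 without the filter. The cause was not tested. The median of all genes moved by at most 0.07 on the log2 scale under the settings tried. With 3 libraries a group and under 10 CPM for most of the 10 genes in cTEC, small differences there could be missed, and no detection limit was computed.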

Other observations

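Of 14 thymic epithelium markers tested, 4 were called higher and 3 lower in Cre cTEC, and 0 higher and 2 lower, Ccl25 and Foxn1, in Cre mTEC. Over all genes tested, 5.62% were called higher and 3.38% lower in cTEC, and 0.585% higher and 1.49% lower in mTEC. Their median log2 fold change was 0.38 in cTEC and -0.09 in mTEC, against -0.02 and 0.01 over all genes tested. Fcer2a, listed as a B cell marker, was at 76.3 to 102 CPM in control mTEC and 45.9 to 69.7 CPM in Cre mTEC, while Cd79a was at most 2.28 CPM there. Zbtb46, listed as a dendritic cell marker, was at 58.6 to 78.0 CPM in mTEC and was called higher in Cre cTEC (12.1 to 14.8 CPM in control and 17.3 to 22.7 CPM in Cre libraries, a log2 fold change of 0.60 with SE 0.14 and adjusted p = 0.00757, edgeR), while Itgax was at most 1.86 CPM in any library. Il21r, a partner of the common gamma chain, was at 14.9 to 15.3 CPM in control mTEC and 18.9 to 26.5 CPM in Cre mTEC, without overlap, and did not pass (log2 fold change 0.52, SE 0.22, adjusted p = 0.259). These genes were picked after their values were seen.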
